A study of Mus musculus with 8 samples.

Results

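SWI/SNF complexes use ATP to slide or evict nucleosomes, and 31 genes that code for their subunits were followed in AtT-20 cells through tamoxifen activation of ER-Pax7. The genes were taken by symbol from a list of known subunits, and all 31 were found among the 55401 genes of the deposited tables. AtT-20 is a line of mouse pituitary corticotropes, the cells that make Pomc, precursor of ACTH, and every library came from cells of the ER-Pax7 genotype, in which ectopic Pax7 is activated by tamoxifen. RNA was sequenced after 0 h of tamoxifen, the untreated state, and after 24, 48 and 72 h, with 2 libraries at each time. Cells given vehicle for matched times, or lacking ER-Pax7, were not used here, so effects of Pax7, of tamoxifen and of time in culture cannot be told apart. The labels do not say whether replicates were separate cultures or how many clones the line holds, so p-values speak of the spread of these libraries alone, some of which may be technical.

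SWI/SNF complexes share a motor ATPase, either Smarca4 or Smarca2. Of the complexes in mammalian cells, BAF is marked by an Arid1 protein, and PBAF by Arid2, Pbrm1, Brd7 and Phf10. The noncanonical ncBAF is marked by Brd9 and Bicra or Bicral. BAF and PBAF share a core that includes Smarcb1, Smarcc1, Smarcc2, Smarce1 and a Smarcd protein. When mouse neural progenitors become neurons, Actl6a gives way to Actl6b, Ss18 to Ss18l1, and Phf10 or Dpf2 to Dpf1 or Dpf3, while Smarcd3 is known for its part in heart and muscle. In corticotropes, Smarca4 protein takes part in the repression of Pomc by glucocorticoids. A pioneer factor such as Pax7 binds closed chromatin, and remodelling complexes are among the machinery that opens it.

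Each value is a signal, a level per base that averages the reads covering the exons of a gene, in the authors' scaling. A mean over annotated exons falls where exons go unused, so levels and shares of different genes compare signal and not transcript numbers. Summed signal was between 164236 and 178548 per library, and the read depth behind it is unknown. The 0 h libraries lay nearest each other (r = 0.994 across genes, a description only), whereas no library of 24, 48 or 72 h lay nearest the other library of its own time. In 72 h replicate 2 the mitochondrial ribosomal RNA mt-Rnr1 stood at 25.1, against 1.14 to 5.97 in the other libraries. The signal of Pax7, in which reads of endogenous and introduced copies may be mixed, averaged 13.6 over the libraries and was called at no time. Signal of the melanotrope marker Oacyl was 0.0129 and 0.0171 before tamoxifen, then 0.618 and 0.635 after 72 h. Pcsk2, another such marker, moved from 0.325 and 0.294 to 0.845 and 0.822 over that span. For both genes each later library exceeded both untreated ones, while the marker Drd2 stayed at 0 throughout. Oacyl and Pcsk2 averaged below 1 and so did not enter the main test. The part of Pax7 in their changes was not tested. Among corticotrope markers, Pomc (mean 592), Tbx19, Neurod1, Pcsk1 and Pitx1 had a mean signal of at least 1, while Crhr1 had 0.0753. The muscle regulators Myod1, Myf5 and Myog were listed at 0 in every library, and 7 fibroblast markers summed to 0.256 to 0.576.

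Transcripts of both ATPases, of 10 of 13 core subunits and of Arid1a, Arid1b, Arid2, Pbrm1 and Phf10 were measured in the corticotrope line at a mean signal of at least 1, and none of the subunits tested was called higher or lower at any time of tamoxifen. Of the 31 genes, 20 had a mean signal of at least 1 and entered the test, which was a limma fit on log2(signal + 1) with Benjamini-Hochberg adjustment over 9606 genes; a gene was called at an adjusted p under 0.05. Limma called 0 of these 20 at 24 h against 0 h, where it called 0.229% of all tested genes, and 1 of the 20 had an unadjusted p under 0.05 (13.2% of all tested genes did). It called 0 of 20 at 48 h, against 0.552% of all tested genes, with 5 members under an unadjusted 0.05 (10.5% of all). At 72 h it called 0 of 20, against 2.01% of all tested genes, with 1 member under an unadjusted 0.05 (15.7% of all). From 24 to 72 h it called 0 of 20, against 0.0208% of all tested genes, with 2 members under an unadjusted 0.05 (13.6% of all). A linear trend over the hours called 0 of 20, against 1.96% of all tested genes, with 1 member under an unadjusted 0.05 (14.8% of all). At these background rates a count of 0 among 20 genes is no result particular to the subunits.

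On the log2(signal + 1) scale the 95% interval of each of the 20 tested subunits stayed within 1.5-fold at each time. Each interval holds for 1 gene and 1 comparison, and they do not bound all the changes together. At 72 h against 0 h the fitted changes lay between 0.837-fold for Smarcc2 and 1.097-fold for Bicral. The 95% intervals at 72 h reached down to 0.717-fold, for Smarcc2, and up to 1.25-fold, for Smarca4. At 24 h they reached from 0.760-fold, for Smarcd2, to 1.22-fold, for Smarca4, and at 48 h from 0.742-fold, for Smarcd2, to 1.22-fold, for Bcl7b. The added 1 understates the change of low genes. Adding 0.1 in place of 1, the outer bounds at 72 h were 0.669-fold, for Smarcc2, and 1.40-fold, for Bicral. With 0.1 added they were 0.733-fold, for Pbrm1, and 1.27-fold, for Smarca4, at 24 h. At 48 h they were 0.721-fold, for Smarcd3, and 1.36-fold, for Bcl7b. From 24 to 72 h the outer bounds were 0.732-fold, for Smarce1, and 1.31-fold, for Pbrm1, and with 0.1 added they were 0.693-fold, for Smarce1, and 1.545-fold, for Bicral, the 1 bound above 1.5-fold.

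**Figure D1:**
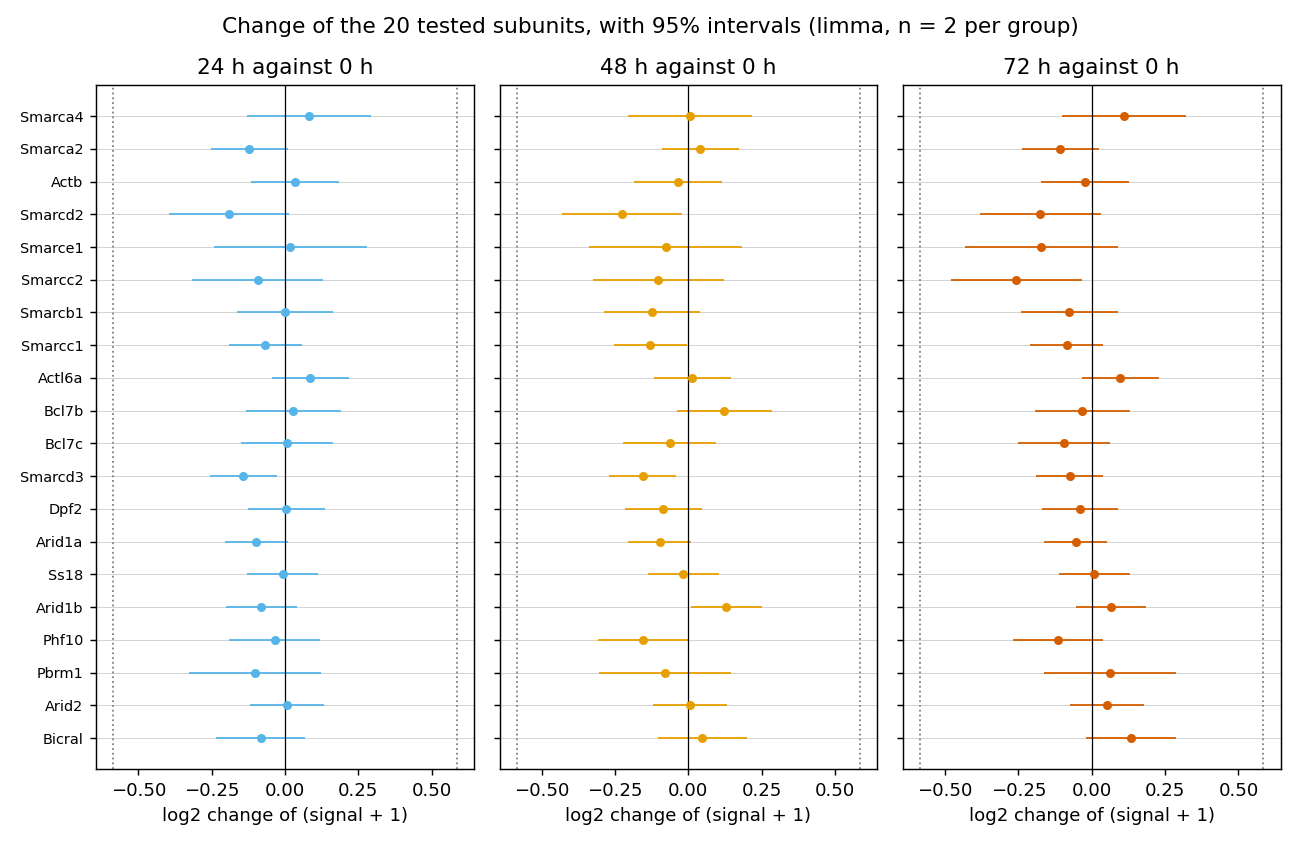
Change of each of the 20 tested subunits at 24, 48 and 72 h against 0 h, in log2 units of signal + 1 from the limma fit (n = 2 libraries per group). Points are fitted changes, bars are 95% intervals, dotted lines mark 1.5-fold, and no bar reaches a dotted line; at 72 h the points lie between -0.26, for Smarcc2, and 0.13, for Bicral.

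Levels spread widely between subunits and little between times. Actb, the actin of the complex and of the cytoskeleton, was highest at a mean signal of 115, and 98.8% of tested genes lay at or below it. Smarcd2 followed at 12.4, Phf10 at 7.24 and Smarce1, a DNA-binding core subunit, at 5.12. Smarcc2, Smarca4 and Smarcb1 stood at 4.42, 4.35 and 4.26, and their values over the 8 libraries overlapped each other and those of Smarce1, so their order is not set by these data. The same held for Smarcc1 and Actl6a (3.79 and 3.77), for Dpf2 and Arid1a (3.32 and 3.22), and for Pbrm1 and Ss18 (2.245 and 2.15). Neighbouring sets overlapped too, Smarcb1 with Smarcc1, Actl6a with Dpf2, and Pbrm1 and Ss18 with Arid2. Arid2, at 1.945, lay above Smarca2 in every library, and from Smarca2 through Bcl7b, Bicral, Arid1b and Bcl7c to Smarcd3 (means of 1.48 to 1.03) each gene overlapped the next. Across the 8 libraries the highest value of a tested member was between 1.08 times (Actb) and 1.54 times (Bicral) its lowest, with a median of 1.28 times, against a median of 1.25 times over all tested genes.

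**Figure D2:**
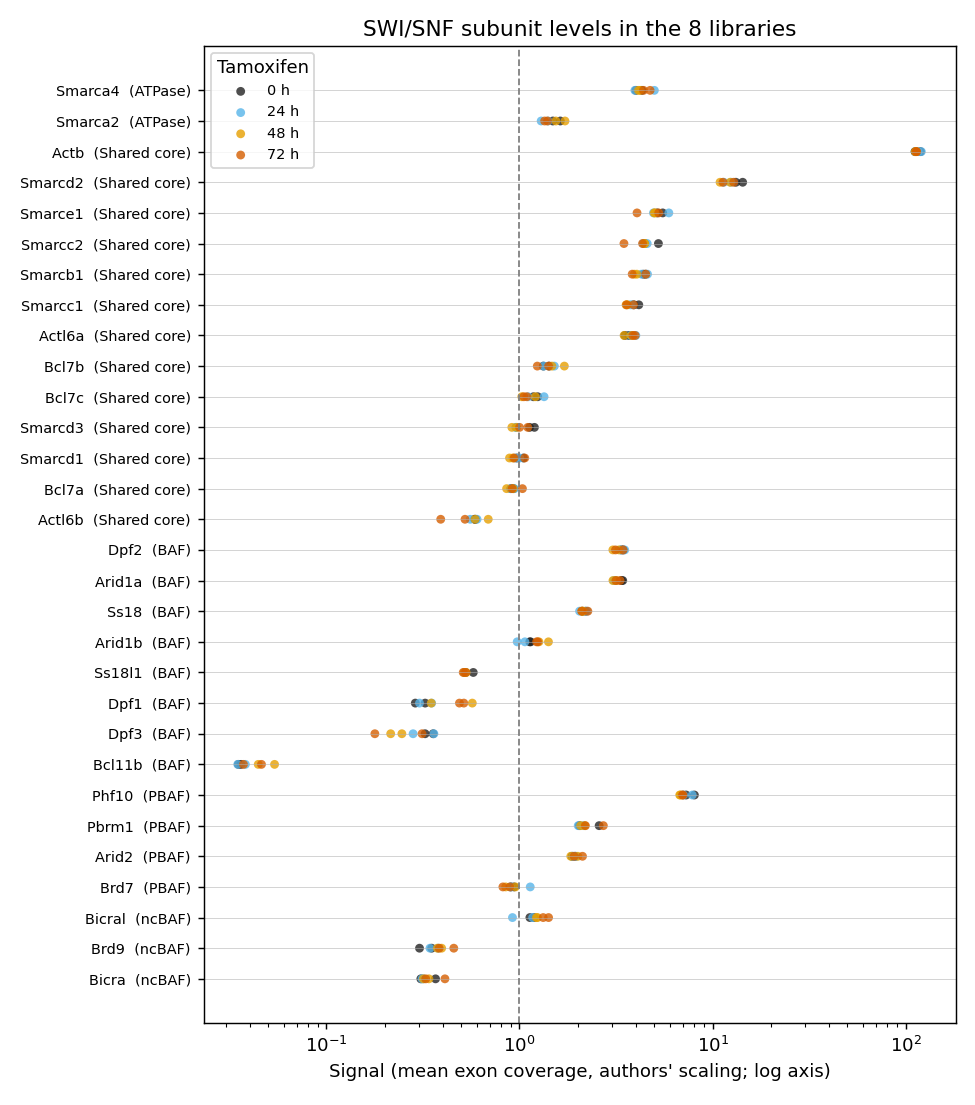
Signal (mean exon coverage as scaled by the authors, log axis) of 30 subunits in the 8 libraries, 1 point per library and coloured by hours of tamoxifen, in the order ATPases, shared core, BAF, PBAF and ncBAF; Bcl11a, near 0, is not drawn. The dashed line marks a signal of 1, and the points of a gene stay close together while genes range from Bcl11b, near 0.041, to Actb, near 115.

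Smarca4 had the higher signal of the ATPases in every library. Annotated exons hold 14269 bases at Smarca2 and 6475 at Smarca4 (GENCODE M21), and exons not used in these cells would lower a mean over exons. Smarca4 had 4.01 and 4.31 at 0 h, 4.997 and 3.96 at 24 h, 4.22 and 4.13 at 48 h, and 4.39 and 4.75 at 72 h. Both 72 h libraries lay above both 0 h libraries, by a fitted log2 change of 0.11 (SE 0.09, limma adjusted p = 0.620). Smarca2, the alternative ATPase, had 1.63 and 1.49 at 0 h, 1.29 and 1.41 at 24 h, 1.54 and 1.72 at 48 h, and 1.40 and 1.35 at 72 h (log2 -0.11 at 72 h against 0 h, SE 0.06, limma adjusted p = 0.416). Smarca4 made up 76.9% ± 1.42 of the summed ATPase signal at 72 h and 72.7% ± 2.26 at 0 h (SD, n = 2 each), and between 70.6% and 79.4% in single libraries. Of the exonic bases of Smarca2, 25.5% lie inside the span of another gene, though only 0.28% inside exons of one, on the opposite strand. Whether reads were assigned by strand is not given.

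Among the tested core subunits, 9 of 10 had a negative log2 change at 72 h against 0 h, as did 4485 of all 9606 tested genes. The median change of the 10 was -0.08, against 0.01 over all tested genes, and none of the 10 was called. These changes share the 0 h libraries. Smarcc2, a scaffold on which the complex is built (chromosome 10, 128459248 to 128490482, GRCm38), had the largest change of any tested member at 72 h. It had 5.25 and 4.46 at 0 h, 4.37 and 4.59 at 24 h, 4.46 and 4.43 at 48 h, and 4.34 and 3.48 at 72 h. Both 72 h libraries lay below both 0 h libraries (log2 -0.26, 95% interval -0.48 to -0.03, limma adjusted p = 0.255). The low value came from 72 h replicate 2, the library with the high mt-Rnr1, and the change was -0.13 without it and -0.16 without 0 h replicate 1; the part of mt-Rnr1 in the result was not tested. Its paralog Smarcc1 had 4.15 and 3.91 at 0 h, 3.85 and 3.75 at 24 h, 3.57 and 3.63 at 48 h, and 3.59 and 3.90 at 72 h, all 6 later libraries below both at 0 h. Smarcc1 stood at 3.745 ± 0.222 at 72 h and 4.03 ± 0.169 at 0 h, with an adjusted p of 0.504 from limma.

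Smarce1 also had its lowest value in 72 h replicate 2. It had 5.52 and 5.17 at 0 h, 5.94 and 4.94 at 24 h, 4.99 and 5.04 at 48 h, and 5.26 and 4.06 at 72 h, so that the 72 h and 0 h libraries overlapped. The log2 change at 72 h was -0.17 (SE 0.11, limma adjusted p = 0.522), and -0.02 without that library. Smarcb1, the subunit that contacts the nucleosome face opposite the motor, stood at 4.17 ± 0.477 at 72 h and 4.44 ± 0.0853 at 0 h, with an adjusted p of 0.672 from limma. Actb had 114 ± 0.492 at 72 h and 116 ± 5.37 at 0 h, with an adjusted p of 0.921 from limma.

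Of the Smarcd genes, whose proteins link the complex to transcription factors, Smarcd2 was far above its paralogs in signal. Smarcd2 had 14.3 and 13.2 at 0 h, 12.5 and 11.4 at 24 h, 12.3 and 10.9 at 48 h, and 12.9 and 11.3 at 72 h. Every later library lay below both 0 h libraries, and limma adjusted p was 0.414, 0.421 and 0.394 for log2 changes of -0.19, -0.23 and -0.17. Smarcd3, the subunit known from heart and muscle, had 1.13 and 1.19 at 0 h, 0.959 and 0.958 at 24 h, 0.966 and 0.913 at 48 h, and 1.001 and 1.10 at 72 h. It too was lower than both 0 h libraries in every later library, with limma adjusted p = 0.305, 0.289 and 0.526. Of the exonic bases of Smarcd3, 48.2% lie inside exons of other genes on the opposite strand, mainly Chpf2, and whether reads were assigned by strand is not given. Chpf2 stood at 1.121 and 1.247 in the 72 h libraries, against 0.971 and 0.984 at 0 h. Smarcd1, below the filter at a mean of 0.974, had 1.05 and 0.971 at 0 h, 1.003 and 0.955 at 24 h, 0.888 and 0.924 at 48 h, and 0.938 and 1.065 at 72 h, with the 72 h and 0 h libraries overlapping.

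The share of each Smarcd gene in the summed Smarcd signal kept a narrow range. Smarcd2 held between 83.9% and 86.9% in the 8 libraries, Smarcd3 between 6.65% and 8.18%, and Smarcd1 between 6.26% and 7.89%. The muscle type subunit thus held a minor part of the Smarcd signal at 0 h and at each later time. Of 8 muscle markers, 0 reached a mean signal of 1. Their summed signal, most of it from Myh3 (mean 0.876), was 1.14 and 1.04 in the 72 h libraries, against 1.095 and 1.11 at 0 h. Smarcd3 and Dpf3, the subunits of muscle and heart type, summed to 1.18 and 1.42 in the 72 h libraries, against 1.485 and 1.52 at 0 h. Their counterparts Smarcd1, Smarcd2 and Dpf2 summed to 16.95 and 15.8 in the 72 h libraries, against 18.75 and 17.6 at 0 h.

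Among the subunits listed under BAF, Arid1a, a large DNA-binding subunit, had the highest signal of the ARID genes. Arid1a had 3.38 and 3.43 at 0 h, 3.08 and 3.15 at 24 h, 3.05 and 3.18 at 48 h, and 3.16 and 3.32 at 72 h. All 6 later libraries lay below both 0 h libraries, with fitted log2 changes of -0.10, -0.10 and -0.05 and limma adjusted p = 0.426, 0.514 and 0.639. Its alternative Arid1b had 1.14 and 1.13 at 0 h, 0.973 and 1.07 at 24 h, 1.41 and 1.26 at 48 h, and 1.23 and 1.24 at 72 h. Arid1b was thus lowest at 24 h and highest at 48 h, with limma adjusted p = 0.538, 0.440 and 0.606 against 0 h and 0.308 for 72 h against 24 h. In the summed signal of Arid1a, Arid2 and Arid1b, the share of Arid1a was 49.9% ± 0.312 at 72 h and 52.8% ± 0.749 at 0 h, and that of Arid1b was 19.0% ± 0.593 at 72 h and 17.6% ± 0.0669 at 0 h (SD, n = 2 each). Dpf2, a histone-reading subunit, had 3.37 and 3.45 at 0 h, 3.51 and 3.345 at 24 h, 3.27 and 3.05 at 48 h, and 3.14 and 3.44 at 72 h. Ss18, known as a partner in the fusion protein of human synovial sarcoma, had 2.201 and 2.12 at 0 h, 2.24 and 2.05 at 24 h, 2.13 and 2.11 at 48 h, and 2.10 and 2.26 at 72 h. The 72 h and 0 h libraries of both genes overlapped. Dpf2 and Ss18 gave log2 changes at 72 h of -0.04 and 0.01 (limma adjusted p = 0.805 and 0.961).

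The subunits that define PBAF showed no shared direction at 72 h. Phf10, a histone-reading subunit of PBAF, had 7.30 and 8.06 at 0 h, 7.85 and 7.08 at 24 h, 6.76 and 6.83 at 48 h, and 7.02 and 6.997 at 72 h. All 4 libraries of 48 and 72 h lay below both 0 h libraries, with log2 changes of -0.15 and -0.11 and limma adjusted p = 0.475 and 0.467. Of its exonic bases, 96.7% lie inside the span of the gene 1600012H06Rik on the opposite strand, though only 9.57% inside other exons. That gene stood at 2.88 and 2.945 in the 72 h libraries, against 3.61 and 3.275 at 0 h. Arid2 stood at 2.02 ± 0.143 at 72 h and 1.91 ± 0.0506 at 0 h, with an adjusted p of 0.704 from limma. Pbrm1, which holds several bromodomains, stood at 2.46 ± 0.371 at 72 h and 2.31 ± 0.384 at 0 h, with an adjusted p of 0.830 from limma, and Brd7, below the filter, ranged from 0.820 to 1.14, with both 72 h libraries below both 0 h libraries. The median log2 change at 72 h was 0.05 over 3 tested PBAF members and -0.02 over 4 tested BAF members, with no test between these lists.

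Of the ncBAF subunits only Bicral, a paralog of Bicra, passed the filter. It had 1.19 and 1.13 at 0 h, 0.920 and 1.17 at 24 h, 1.24 and 1.22 at 48 h, and 1.33 and 1.41 at 72 h. Both 72 h libraries lay above all 6 others, and limma adjusted p was 0.375 for 72 h against 0 h (log2 0.13, SE 0.07) and 0.250 for 72 h against 24 h (log2 0.22). Of its exonic bases, 11.3% lie inside exons of another gene on the opposite strand and 76.8% inside the span of another gene. Brd9, the bromodomain subunit that defines ncBAF, had 0.351 and 0.3035 at 0 h, 0.379 and 0.344 at 24 h, 0.395 and 0.376 at 48 h, and 0.384 and 0.457 at 72 h. Both 72 h libraries of Brd9 lay above both 0 h libraries. Bicra ranged from 0.308 to 0.411. Without a filter on low values, the linear trend of Brd9 gave an unadjusted p of 0.0322 and a limma adjusted p of 0.459.

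Groups that do not overlap were common at this replicate number. At 72 h against 0 h, 4 of 20 tested members (20%) had both 72 h libraries above both 0 h libraries, against 27.4% of all tested genes, and 8 (40%) had both below, against 22.4%. At 48 h the members were 3 higher (15%, against 24.3%) and 9 lower (45%, against 22%), and at 24 h 1 higher (5%, against 24.4%) and 6 lower (30%, against 17.8%). These comparisons share the 0 h libraries. From 24 to 72 h, which does not use them, 5 members (25%) lay higher and 4 (20%) lower, against 20.7% and 21.6% of all tested genes. The share of all tested genes with all 6 later libraries below both at 0 h is not given here. Nor are such shares given for genes below the filter.

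The neuronal type subunits were the low partners in every exchange pair. None of the 6 listed (Actl6b, Ss18l1, Dpf1, Dpf3, Bcl11a and Bcl11b) had a mean signal of 1, whereas all 4 of their counterparts in other cells (Actl6a, Ss18, Dpf2 and Phf10) did. The 6 summed to 1.75 and 1.78 in the 72 h libraries, against 1.89 and 1.76 at 0 h, and the 4 to 16.1 and 16.7 in the 72 h libraries, against 16.4 and 17.3 at 0 h. Actl6b had 0.592 and 0.586 at 0 h, 0.603 and 0.556 at 24 h, 0.589 and 0.689 at 48 h, and 0.522 and 0.391 at 72 h. Actl6a, an actin-like protein of the core, had 3.51 and 3.69 at 0 h, 4.01 and 3.77 at 24 h, 3.48 and 3.82 at 48 h, and 3.87 and 3.97 at 72 h (log2 0.10 at 72 h against 0 h, limma adjusted p = 0.463). Actl6b therefore made up 10.4% ± 2.07 of the summed Actl6 signal at 72 h and 14.1% ± 0.512 at 0 h. Both 72 h libraries lay below all 6 others in this share, with the lower value, 8.95%, in the library with the high mt-Rnr1. Without a filter on low values limma gave Actl6b a log2 change of -0.13 at 72 h and an adjusted p of 0.574. With the floor lowered to a mean of 0.1, and 0.1 in place of 1 added before the log, its log2 change was -0.32 (95% interval -0.636 to -0.001), with an unadjusted p of 0.0496 and an adjusted p of 0.356. Of the exonic bases of Actl6a, 11.6% lie inside exons of Mrpl47 on the opposite strand.

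The promoters of Actl6b and Actl6a, and of the other neuronal and general partners Dpf1 and Dpf2, are shown because the neuronal partner was the lower one in all 8 libraries and because the study's title names DNA demethylation; methyl groups in mammals sit mainly on CG dinucleotides, and no methylation was analysed here. The 250 bases before the start in RefSeq (GRCm38.p6) are given from 5′ to 3′, with each CG in capitals.
Actl6b promoter, chr5:137553296-137553545, plus strand: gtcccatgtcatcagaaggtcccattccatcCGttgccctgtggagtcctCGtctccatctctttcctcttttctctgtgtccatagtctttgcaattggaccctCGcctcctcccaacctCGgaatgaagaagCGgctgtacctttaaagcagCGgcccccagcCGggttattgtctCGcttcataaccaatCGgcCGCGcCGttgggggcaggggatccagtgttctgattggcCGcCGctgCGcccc
Actl6a promoter, chr3:32708296-32708545, plus strand: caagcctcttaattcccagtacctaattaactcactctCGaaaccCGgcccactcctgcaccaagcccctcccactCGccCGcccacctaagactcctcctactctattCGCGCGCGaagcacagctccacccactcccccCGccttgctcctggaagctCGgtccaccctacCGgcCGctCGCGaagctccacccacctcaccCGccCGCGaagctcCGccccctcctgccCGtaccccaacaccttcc
Dpf1 promoter, chr7:29303755-29304004, plus strand: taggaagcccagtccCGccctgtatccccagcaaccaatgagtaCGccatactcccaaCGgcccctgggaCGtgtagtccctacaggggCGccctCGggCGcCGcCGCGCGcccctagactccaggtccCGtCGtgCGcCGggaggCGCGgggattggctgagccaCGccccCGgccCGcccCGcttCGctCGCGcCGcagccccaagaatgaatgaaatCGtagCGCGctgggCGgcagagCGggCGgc
Dpf2 promoter, chr19:5912872-5913121, minus strand: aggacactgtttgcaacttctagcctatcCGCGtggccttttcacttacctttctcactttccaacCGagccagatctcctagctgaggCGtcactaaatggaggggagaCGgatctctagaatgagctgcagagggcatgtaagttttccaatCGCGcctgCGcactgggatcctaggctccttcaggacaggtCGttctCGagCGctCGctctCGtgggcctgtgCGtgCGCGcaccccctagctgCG
Actl6b held 15 CG and Actl6a 19, Dpf1 held 31 and Dpf2 17, so the low partner was poorer in CG in the one pair and richer in the other. Over the 26 promoters of the 24 subunit genes in the table the median was 26.5 CG, from 4 at Smarcd2 to 51 at Phf10. Over all 32841 promoters used, of 27018 genes and not chosen by expression, the median was 6. No comparison with expressed genes alone was made. The core of the Pax paired-domain site, GTCACGC, which itself holds a CG, was searched on both strands. Among member promoters it was found at Pbrm1 alone, in 3.85% of them and in 1.78% of all promoters used. The palindromic homeodomain site, TAAT and its reverse complement ATTA with 2 bases of any kind between them, was in 0 member promoters and in 0.384% of all. These windows say only where the letters occur.

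Dpf1, a histone-reading subunit of neuronal BAF, had the largest ratio of any subunit. It had 0.325 and 0.289 at 0 h, 0.351 and 0.303 at 24 h, 0.349 and 0.570 at 48 h, and 0.489 and 0.515 at 72 h, a ratio of 1.64 between the 72 h and 0 h means. The 72 h libraries lay above both 0 h and both 24 h libraries, and the 48 h libraries spread across that gap. Without a filter on low values limma gave an unadjusted p of 0.0428 and an adjusted p of 0.473 (log2 0.20). With the floor at a mean of 0.1 and 0.1 added before the log it gave an unadjusted p of 0.0178 and an adjusted p of 0.221 (log2 0.57, 95% interval 0.13 to 1.003). Its linear trend in that limma fit had an adjusted p of 0.127. Of the exonic bases of Dpf1, 27.4% lie inside the span of another gene, though only 1.79% inside other exons. Dpf1 made up 4.54% ± 0.0420 of the summed signal of Phf10, Dpf2, Dpf1 and Dpf3 at 72 h and 2.62% ± 0.338 at 0 h (SD, n = 2 each).

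Dpf3, the other neuronal PHD finger subunit and one also known from heart and muscle, had 0.357 and 0.3245 at 0 h, 0.281 and 0.360 at 24 h, 0.246 and 0.215 at 48 h, and 0.178 and 0.313 at 72 h. All 4 libraries of 48 and 72 h lay below both at 0 h. Limma adjusted p was 0.700 without a filter and 0.462 with the lower floor. Ss18l1, the neuronal partner of Ss18, had 0.576 and 0.525 at 0 h, 0.520 and 0.523 at 24 h, 0.5295 and 0.517 at 48 h, and 0.527 and 0.511 at 72 h. The 72 h and 0 h libraries overlapped, and its share of the summed Ss18 signal stayed between 18.4% and 20.75% in the 8 libraries. Bcl11b, a zinc finger subunit of neurons and T cells, ranged from 0.0347 to 0.0538, and its relative Bcl11a was listed at 0 in 7 libraries and at 0.002485 in 24 h replicate 2. Of the 11 subunits below the filter, limma without the filter called 0 at 72 h against 0 h and 1 had an unadjusted p under 0.05, against 0.167% and 9.96% of 37675 genes. With the lower floor it called 0 of 9 and 2 were under an unadjusted 0.05, against 1.57% and 14% of 17871 genes. For the linear trend it called 0 of 11 without the filter, with 2 under an unadjusted 0.05, against 0.234% and 9.55% of all genes. With the lower floor it called 0 of 9 for the trend, with 3 under an unadjusted 0.05 (Dpf1, Brd9 and Dpf3), against 1.27% and 13.5% of all genes. Of 8 neuronal markers, 6 had a mean signal of at least 1, while Rbfox3 and Dcx had 0.0246 and 0.00402. Snap25, a synaptic vesicle fusion protein, was called lower at 72 h (log2 -0.30, limma adjusted p = 0.0479). No other tested marker of this list was called at 72 h, and the linear trend of Snap25 was not called (limma adjusted p = 0.243). How the call of Snap25 depends on single libraries was not examined. The summed signal of the list was 45.5 and 48.75 in the 72 h libraries, against 55.3 and 65.7 at 0 h. Of these sums Tubb3 alone gave 11.4 and 13.3 at 72 h, against 13.75 and 26.3 at 0 h, so much of the difference came from 0 h replicate 2. Syn1 was the only tested marker of the list with a positive log2 change at 72 h (0.05). The part of these markers in the levels of the neuronal type subunits was not tested. In such bulk samples, fewer cells that hold a transcript and less of it per cell cannot be told apart.

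**Figure D3:**
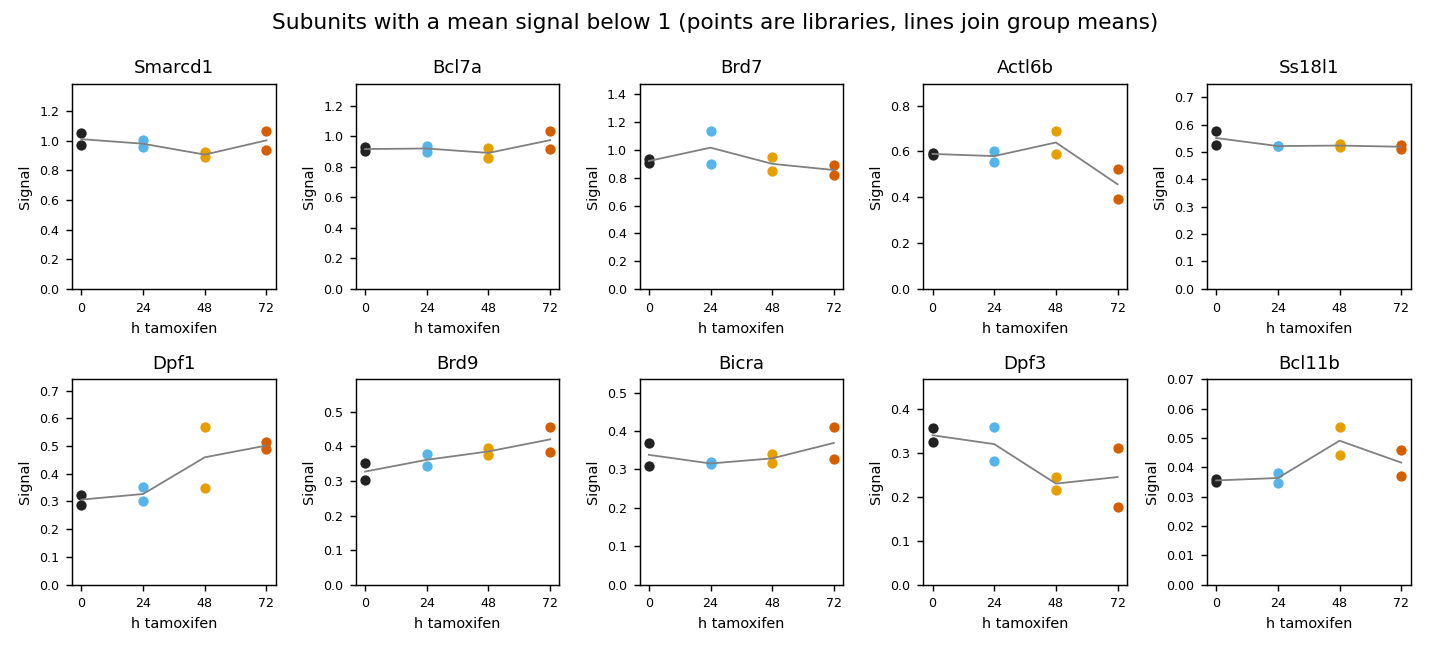
Signal of 10 subunits with a mean below 1 over the 8 libraries against hours of tamoxifen; points are single libraries, lines join the means of 2 libraries, and each vertical axis starts at 0. Dpf1 is at 0.489 and 0.515 at 72 h, against 0.325 and 0.289 at 0 h, and Actl6b is at 0.522 and 0.391 at 72 h, against 0.592 and 0.586 at 0 h; Bcl11a, near 0, is not drawn.

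**Figure D4:**
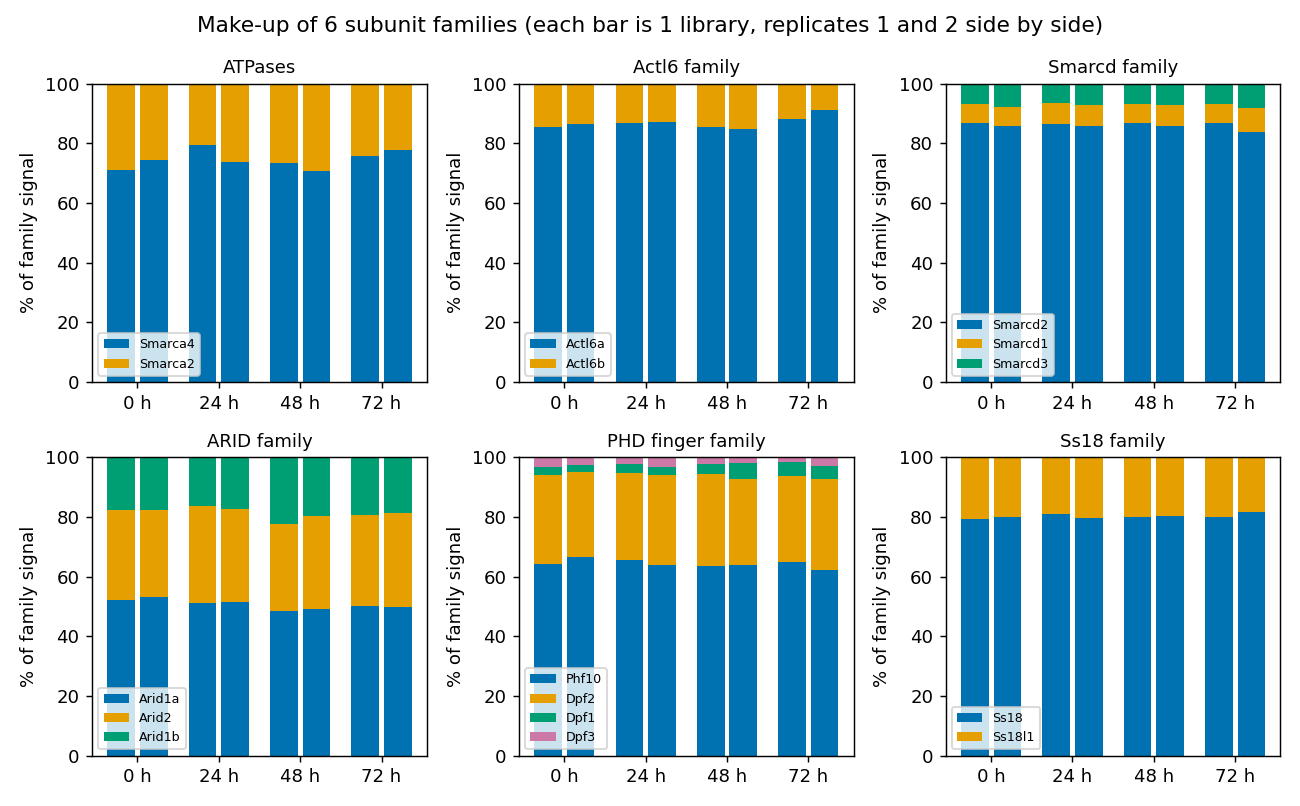
Percent of the summed signal of each of 6 subunit families held by each member, 1 stacked bar per library, with replicates 1 and 2 side by side at 0, 24, 48 and 72 h. Smarca4, Actl6a, Smarcd2, Arid1a, Phf10 and Ss18 are the main members of their families in all 8 libraries, and Actl6b has its smallest shares at 72 h.

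The remaining paralogs kept their order of mean signal across the times. Bcl7b, Bcl7c and Bcl7a, small core subunits of less well known role, held on average 39.3%, 31.8% and 29.0% of their summed signal at 72 h and 39.3%, 34.6% and 26.2% at 0 h. Their annotated exons hold 2404, 7222 and 9490 bases, so this order of signal need not be that of transcript numbers. Limma adjusted p at 72 h was 0.886 for Bcl7b, 0.565 for Bcl7c and, without a filter, 0.836 for Bcl7a, which ranged from 0.858 to 1.04. Bicral made up 78.9% ± 1.95 of the Bicra family signal at 72 h and 77.5% ± 2.77 at 0 h. The share of Smarcc2 in the Smarcc signal was 50.9% ± 5.39 at 72 h and 54.6% ± 1.79 at 0 h. In 72 h replicate 2 it was 47.1%, and this was the only library with more signal for Smarcc1 than for Smarcc2. Annotated exons hold 5552 bases at Smarcc2 and 7832 at Smarcc1, so the same limit applies to this pair.

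Other chromatin genes were described beside the subunits. Of 42 genes of other ATP-dependent remodellers (the ISWI and INO80 families and their relatives), 34 were tested, and limma called 0 at 24, 48 and 72 h against 0 h, where it called 0.229%, 0.552% and 2.01% of all tested genes. At an unadjusted p under 0.05 were 4 (11.8%), 3 (8.82%) and 5 (14.7%) of the 34, against 13.2%, 10.5% and 15.7% of all tested genes, so these counts lie near the background. Their median log2 change at 72 h was -0.004, against -0.05 for the 20 subunits and 0.01 for all tested genes. Of 31 Polycomb genes, whose complexes oppose SWI/SNF at many promoters, 23 were tested, and at 72 h limma called 1 higher and 0 lower, with 3 (13%) at an unadjusted p under 0.05, against 2.01% and 15.7% of all tested genes. This was Bcor, a subunit of a noncanonical Polycomb complex, which had 1.40 and 1.42 at 0 h, 1.63 and 1.69 at 24 h, 1.71 and 1.68 at 48 h, and 2.004 and 1.93 at 72 h. All later libraries of Bcor lay above both 0 h libraries, with log2 0.30 at 72 h (SE 0.04, limma adjusted p = 0.0191). The call was lost without either 0 h, either 48 h or either 72 h library, with adjusted p of 0.158 and 0.157, 0.0563 and 0.0561, and 0.138 and 0.102 in limma. It was lost also without a filter (adjusted p = 0.0538) and in a limma fit of the 72 h and 0 h libraries alone (adjusted p = 0.0537). In all these fits the log2 change of Bcor stayed between 0.28 and 0.32. Its linear trend was called as well (0.09 per 24 h, limma adjusted p = 0.0205), also without a filter (0.0454), but not without either 0 h library (0.115 and 0.120) or either 72 h library (0.106 and 0.0664).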

How the data were processed

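RNA of 8 libraries (2 each at 0, 24, 48 and 72 h of tamoxifen, grouped and numbered by their titles) was measured after ribosomal depletion, per the labels' protocols. Their molecule label reads genomic DNA, against an RNA protocol. The deposited value of each gene was taken, from the values and file headers, as signal, a mean exon coverage scaled by the authors; how it was scaled, whether strand was used and which annotation served was not given in the sources. Per the submitters' processing notes, the tools were HISAT2 2.2, SAMtools 1.12 and deepTools 3.5 and the build mm10 (GRCm38). Gene positions and exon overlaps were taken from GENCODE M21 (GRCm38), in which 30 of the 31 member identifiers were matched; the locus of Ss18 was not analysed here.

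Genes that averaged a signal of 1 or more over the libraries were fitted on log2(signal + 1) with limma 3.58.1 in R 4.3.3 (group as the only term, intensity trend, 4 residual degrees of freedom), adjusted by Benjamini-Hochberg over all tested genes at 0.05. Members below the filter came from the same fit without it and from one with the floor and the pseudocount at 0.1, called the lower floor. Alternatives were rescaling, quantile normalization, other filters and pseudocounts, no intensity trend, a replicate block, fits of 2 groups, and leaving out each library. The fit was tested on simulated data. The plan named a value column of unknown unit, and the test for non-count values was used. Members and lists were chosen with earlier results of these data known. Values in every library were given for the 5 tested members with the largest change at 72 h, for fixed paralog pairs, and for any gene of the Polycomb or other remodeller lists that was called; members below the filter and outside these pairs were given by range, other than Brd9, and the remaining members by means, shares or tests. Promoters came from RefSeq, leaving out a chromosome and any window with a base other than A, C, G or T, and 24 members were matched. No promoter was used for Smarce1, Actb, Bcl7a, Arid2, Bicra and Bicral, and that of Ss18 was not analysed here.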

Additional observations from a re-analysis of the deposited data

How the results depend on the processing

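Limma called 0 subunits in each comparison under all 16 alternatives, 79 counts in all, as the fit of 2 groups gives no trend. The lowest adjusted p of any tested subunit was 0.0599, for Bicral at 72 h against 24 h (log2 0.30) without 24 h replicate 2. Unadjusted p under 0.05 was reached at 72 h against 0 h by 1 to 3 members when all libraries of a comparison were kept and by 0 to 4 with 1 library left out. Of 1580 fitted changes of tested members, 64 had the opposite sign, none from a main change above 0.102 in size (log2). Counts over all genes depended more on the libraries: with 1 left out, calls numbered 2 to 104 at 24 h, 2 to 95 at 48 h, 9 to 320 at 72 h, 0 to 61 for 72 h against 24 h and 6 to 328 for the trend, against 22, 53, 193, 2 and 188. Other settings gave 1 to 29, 5 to 111, 63 to 281, 0 to 3 and 88 to 227. The replicate differences of 6 pairs of groups correlated at -0.016 to 0.402, over 0.1 for the 3 pairs among 0, 24 and 48 h and under it for the 3 with 72 h, so the libraries were not treated as paired by number. With the replicate number as a block limma called 0 members in every comparison and 18, 24, 154, 1 and 146 genes in all. Read depth is unknown, and 2 libraries a group limit the precision.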
